A study of Mus musculus with 4 samples.

Results

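The genes described here are 30 mouse genes that have been reported as direct targets of the microRNA miR-155, followed in Th17-polarised CD4+ T cells that lack it. They were found by exact match of the gene name on the array to a fixed list of symbols, in which Sfpi1 is the older symbol of Spi1. All 30 were on the array, through 45 probes among the 35528 probes with a gene or transcript name (26328 names). Of the 45 probes, 43 from 29 genes were tested, and the probe of Sfpi1 and 1 of the 3 probes of Rheb were not well above background on any array.

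RNA came from miR-155 knockout (KO) CD4+ T cells on 2 arrays, set against wild-type (WT) CD4+ T cells on 2 arrays. Both genotypes were cultured with antibodies to CD3e and CD28, TGF-beta and IL-6, the signals that direct Th17 differentiation, and both carried a red fluorescent reporter of IL-17F. CD4+ reporter-positive cells were sorted by flow cytometry, so each genotype is represented by the cells that switched the reporter on. The series describes each pair of arrays as biological replicates, but the labels name neither animals nor cultures. The p-values below therefore cover the spread among these 4 samples, some of it possibly technical.

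MicroRNAs guide Argonaute proteins to messenger RNAs by pairing between the microRNA seed near its 5′ end and complementary letters, mostly in the 3′ untranslated region. The bound transcript is destabilised or translated less, so loss of a microRNA is known to release its targets by small amounts. An array measures the transcript level only, and an effect on translation is invisible to it. miR-155 is induced in activated lymphocytes and macrophages, where its reported targets include inhibitors of cytokine signalling, NF-kappaB pathway components and transcription factors.

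The mature strands of the deleted microRNA are shown because every statement on seed matches rests on them. Sequences are RefSeq's for mouse assembly GRCm38.p6, and capitals mark the seed, bases 2 to 8.
mmu-miR-155-5p: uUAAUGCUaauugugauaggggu
mmu-miR-155-3p: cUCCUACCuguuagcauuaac
The first strand lies at chr16:84714143-84714165 and the second at chr16:84714182-84714202, both on the plus strand. Among 1738 mature mouse microRNAs in that table, the seed of miR-155-5p occurred in 1, which is miR-155-5p itself. Its perfect partner in a transcript reads AGCATTA, and a following A (AGCATTAA) makes the longer form of the match.

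Of the 45 probes of the reported targets, 4 held AGCATTA within their 60 bases, namely the leading probes of Cebpb, Map3k14 and Csf1r and the second probe of Zfp652. Here the leading probe of a gene is its tested probe with the highest mean signal. The stretches below are read from the probes in the direction of the transcript, and capitals mark the match. The Csf1r stretch is not shown.
Cebpb: accttttccgtttcgAGCATTAA
Map3k14: cttaggactcattgtAGCATTAA
Zfp652: tttcacacaatatcaAGCATTAt
On mm9 the Cebpb probe lies at chr2:167515828-167515887 (plus strand), the Map3k14 probe at chr11:103081249-103081308 (minus strand) and the Zfp652 probe at chr11:95625809-95625868 (plus strand). Exon annotation on mm9 was not used here. AGCATTA was thus in 8.89% of the target probes, against 0.397% of all gene probes, and the reverse complement TAATGCT was in 0 of the 45 and in 0.349% of all gene probes. Genes reported as direct targets may have been picked for such a match, so these shares describe the list and test nothing. Probe letters run in the direction of the transcript: the polyadenylation signal AATAAA occurred in 13.1% of gene probes and its reverse complement TTTATT in 4.18%. A probe covers only a short piece of its transcript, so a probe without the match says nothing of the rest of the transcript.

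All values below are log2 processed signals minus the 75th percentile of the array, and differences are KO minus WT. The share of non-control spots well above background ran from 63.5% to 69.8% over the 4 arrays, and none was saturated. All arrays lay on 1 slide. KO cells occupied row 2 of it and WT cells row 1, and the effect of row cannot be told apart from that of genotype. The scanner software fits a surface of uneven brightness to each array, and on KO replicate 1 that surface had been divided out at only 0.799% of the spots well above background. The surface there was below 0.6 at 6 probes of the reported targets (the leading probes of Zfp652, Tspan14, Cdc73, Dusp14 and Picalm and the second probe of Csf1r) and from 0.940 to 1.17 at the other 39. The Picalm probe and that Csf1r probe also lie in the dim corner blocks of the array.

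The array carried 0 gene probes named for miR-155 or its host transcript, so the deletion itself was not measured. Mrpl39, the protein-coding gene next to Mir155 in RefSeq's gene order, was at 1.22 and 1.46 on the KO arrays, against 2.43 and 2.53 on the WT arrays. T helper markers were well above background on all 4 arrays for 5 of 5 genes, with differences from -0.16 to 0.068 and 0 at an unadjusted limma p under 0.05. Il17f, the gene whose reporter was sorted on, was at 1.33 and 1.73 on the KO arrays, against 3.45 and 3.57 on the WT arrays. Il17a, which encodes the defining Th17 cytokine, was at -0.81 and -2.21 on the KO arrays, against 1.88 and 1.39 on the WT arrays. These genes were named after their values were seen. Both were well above background on every array, and both were lower in KO cells at an unadjusted limma p under 0.05. Summed levels of the 2 CD8 T cell markers were 0.388 and 0.393 on the KO arrays, against 0.264 and 0.376 on the WT arrays. Cd8a was higher in KO cells without overlap, by 1.32 at its leading probe and by 1.83 at its other. The unadjusted limma p of these probes was 0.00104 and 0.000771. Cd8b1, the brighter of the 2 markers, differed by -0.11 with overlapping groups. Summed levels of the 4 B cell markers were 0.350 and 0.232 on the KO arrays, against 0.237 and 0.227 on the WT arrays. In such bulk samples, fewer cells of a type and less RNA per cell cannot be told apart.

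Of the 29 tested genes, 20 had a positive and 9 a negative difference at the leading probe, where 55.6% of all genes were positive. Differences under 0.25 in size made up 62.1% of the target genes and 61.4% of all genes. Their median difference was 0.13, against 0.037 over the leading probes of all 18921 tested genes. The direction of that median depends on scaling. When arrays were centred on their medians instead, the target probes had a median of -0.053, and all tested probes one of -0.15, against 0.035 as reported. The gap between target probes and all tested probes was 0.093 as reported. It was 0.011 with normexp background correction, 0.022 without the filter on dim probes and 0.021 without WT replicate 2. The SD between replicates of the targets' own median was 0.097. That SD includes shifts of a whole array, which cancel in the gap, so the spread of the gap between replicates was not measured. The largest fold change among leading target probes was 1.47, for Ikbke.

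limma with Benjamini-Hochberg adjustment over all 25230 tested probes called 0 of the 43 target probes, and the smallest adjusted p among them was 0.354. It called 0% of all probes as well, where adjusted p reached 0.282 at the lowest. At an unadjusted limma p under 0.05, 5 target genes were higher and 2 lower in KO cells. The shares of all genes were 7.8% higher and 3.46% lower at that threshold. Both KO arrays lay above both WT arrays for 11 target genes and below them for 4, where the shares of all genes were 27.5% and 19.9%, or 47.4% in either direction. Over every tested target probe, 31 of 43 were positive, against 55.5% of all tested probes. Groups were without overlap for 15 of them upward and 5 downward, against 46.9% of all tested probes in either direction. Among the tested target genes, 17.2% were higher and 6.9% lower by p, and 37.9% were higher and 13.8% lower by lack of overlap. With median scaling and with the deposited matrix the balance turned for the target genes and for all tested probes alike. Then 6 target genes (20.7%) were higher and 9 lower without overlap, and 0 were higher by p. Of all tested probes, 11.8% were then higher and 42.5% lower without overlap, and 3.55% were higher by p. An exact permutation test of 1 gene with 2 arrays against 2 cannot give a two-sided p below 0.333.

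**Figure D1:**
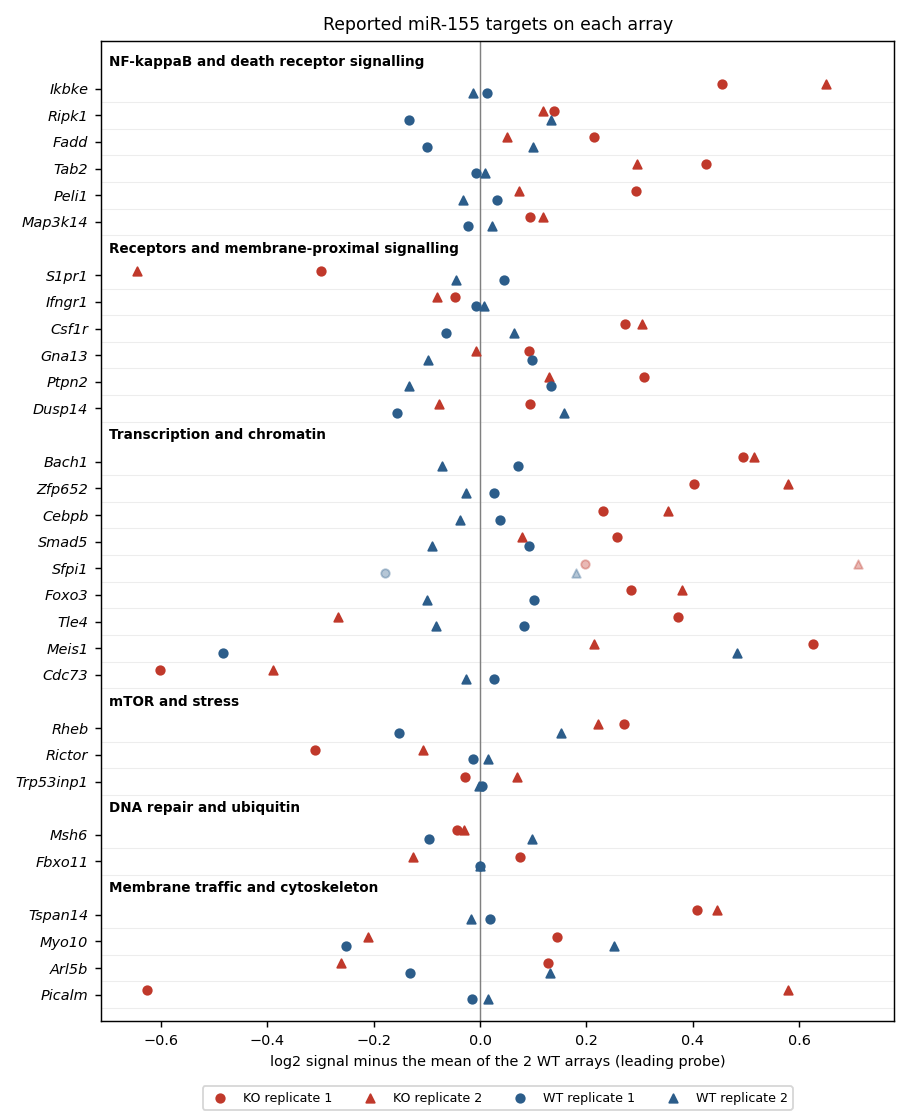
Log2 signal of the leading probe of each reported target on each array, minus the mean of the 2 WT arrays (x axis), by role (rows). Red symbols are KO arrays and blue symbols WT arrays, with faded symbols for Sfpi1, which was not well above background; Ikbke, Tab2, Bach1, Zfp652 and Tspan14 show both KO arrays to the right of both WT arrays, S1pr1 and Cdc73 to the left.

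Components of NF-kappaB and death receptor signalling had 6 of 6 leading probes positive, of which Ripk1, Fadd and Map3k14 turned negative with median scaling. Their median was 0.16. Ikbke, which encodes the IkappaB kinase IKK-epsilon of the interferon-inducing arm, was at 1.57 and 1.77 on the KO arrays, against 1.13 and 1.10 on the WT arrays. The KO arrays were both higher, and the gap between genotypes exceeded the gap between replicates. The difference was 0.55 ± 0.14 (SE), an unadjusted limma p of 0.0138 and an adjusted p of 0.354. Its probe lies at chr1:133151809-133151868 on mm9.

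Tab2 encodes an adaptor that binds ubiquitin chains and activates the kinase TAK1. Its signals were 3.57 and 3.44 on the KO arrays, against 3.14 and 3.15 on the WT arrays. The groups did not overlap, with a difference of 0.36 ± 0.13 (SE) and an unadjusted limma p of 0.0438. Peli1, an E3 ubiquitin ligase of Toll-like and T cell receptor signalling, was at 4.44 and 4.22 on the KO arrays, against 4.17 and 4.11 on the WT arrays, so that the lower KO array exceeded the higher WT array narrowly.

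Map3k14 encodes NIK, the kinase that starts the alternative NF-kappaB pathway. Its leading probe, which carries the seed match shown above, was at 3.61 and 3.64 on the KO arrays, against 3.49 and 3.54 on the WT arrays. Replicates agreed closely there and the groups did not overlap, yet the difference was only 0.11 ± 0.12 (SE). The second Map3k14 probe had 0.037 and -0.99 on the KO arrays, against -0.36 and -0.43 on the WT arrays, and the opposite sign at -0.083. Ripk1, the kinase of TNF receptor complexes, and Fadd, the adaptor that joins death receptors to caspase-8, had differences of 0.13 ± 0.15 and 0.13 ± 0.15 (SE), with overlapping groups in both.

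Receptors and the proteins that act next to the membrane were split in sign. S1pr1 encodes the sphingosine-1-phosphate receptor through which lymphocytes leave lymphoid organs. It was at 2.70 and 2.36 on the KO arrays, against 3.05 and 2.96 on the WT arrays. Both KO arrays were lower, and the difference was -0.47 ± 0.17 (SE) with an unadjusted limma p of 0.0479. The S1pr1 probe lies at chr3:115414020-115414079 on mm9.

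Csf1r encodes the receptor for macrophage colony-stimulating factor, a defining gene of the macrophage lineage. Its leading probe, which holds the longer seed match, was at 0.78 and 0.81 on the KO arrays, against 0.45 and 0.57 on the WT arrays, a difference of 0.29 ± 0.13 (SE) with an unadjusted limma p of 0.081. Its other probes differed by 0.14 and -0.20, and for the last of these both KO arrays lay below both WT arrays, so the probes of Csf1r disagree in sign. All 8 macrophage, monocyte and dendritic cell markers were well above background on all 4 arrays. Their summed linear level was 113 and 116 on the KO arrays, against 103 and 105 on the WT arrays. That sum follows mainly Csf3r, which was at 6.62 and 6.65 on the KO arrays, against 6.46 and 6.51 on the WT arrays. At their leading probes Itgam and Cd68 had means of 3.48 and 1.76 on the KO arrays, against 3.45 and 1.44 on the WT arrays. Their other probes were far lower. Those of Itgam had means of -3.08 and -3.30 on the KO arrays, against -3.22 and -3.19 on the WT arrays. That of Cd68 had -2.08 on the KO arrays, against -2.84 on the WT arrays. Leading probes of Lyz1, Lyz2, Emr1, Cd14 and Itgax were also low. Their means ran from -3.77 to -2.44 on the KO arrays and from -4.28 to -1.62 on the WT arrays. At leading probes 6 of 8 markers had a positive difference and 2, Lyz1 and Cd14, a negative one (-0.82 and -0.64), with 0 at an unadjusted limma p under 0.05. The second probe of Cd68 was higher in KO cells by 0.76, at an unadjusted limma p of 0.0188. The part of such cells in the Csf1r signal was not tested.

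Ifngr1, the ligand-binding chain of the interferon-gamma receptor, was at 4.48 and 4.44 on the KO arrays, against 4.52 and 4.53 on the WT arrays. The groups did not overlap, but the difference was as small as -0.064 ± 0.12 (SE). Ptpn2 encodes a phosphatase that dampens JAK and STAT signalling, and its 3 probes ran from 0.036 to 0.22, all with overlapping groups. The 4 probes of Gna13, a G protein alpha subunit, ran from 0.011 to 0.25. Dusp14, a dual-specificity phosphatase, was at 0.79 and 0.62 on the KO arrays, against 0.54 and 0.86 on the WT arrays, a difference of 0.0089 that became 0.39 once the surface was divided out on KO replicate 1.

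Regulators of transcription and chromatin made up the largest role group, and 7 of its 8 tested leading probes were positive, of which Smad5 and Tle4 turned negative with median scaling and Tle4 also with quantile scaling. The group median was 0.31. Bach1 encodes a haem-regulated repressor of antioxidant genes. It was at 0.67 and 0.69 on the KO arrays, against 0.25 and 0.10 on the WT arrays. The KO arrays were nearly equal and both higher, and the difference was 0.50 ± 0.13 (SE) with an unadjusted limma p of 0.0154 and an adjusted p of 0.362. The Bach1 probe, at chr16:87733532-87733591 on mm9, lies 3.01 Mb from that of Mrpl39, which was lower in KO cells, and the part of the locus in the Bach1 difference was not tested.

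Zfp652, a zinc finger repressor, was the only target gene with several tested probes in which more than 1 reached an unadjusted p under 0.05. Its leading probe was at 3.18 and 3.35 on the KO arrays, against 2.80 and 2.75 on the WT arrays. The second probe, which carries the seed match, was at 0.47 and 0.15 on the KO arrays, against -0.16 and -0.34 on the WT arrays. Groups did not overlap for either probe. The differences were 0.49 ± 0.13 and 0.56 ± 0.17 (SE), with unadjusted limma p of 0.0197 and 0.0297. These probes lie apart on the array, and the fitted surface of KO replicate 1 was 0.580 at the first, whereas the second lay outside the region under 0.6. With the surface divided out, the leading probe differed by 0.87.

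Cebpb encodes a basic leucine zipper factor of inflammatory gene expression and carries the longer seed match in its only probe. It was at 3.23 and 3.35 on the KO arrays, against 3.04 and 2.96 on the WT arrays. The groups did not overlap, and the difference was 0.29 ± 0.13 (SE) with an unadjusted limma p of 0.0811. Foxo3, a forkhead factor restrained by growth factor signalling, had 0.33 ± 0.14 (SE) at its leading probe without overlap and 0.031 ± 0.36 (SE) at its other probe.

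Cdc73, which encodes parafibromin of the RNA polymerase II-associated PAF1 complex, had the opposite sign. Its signals were -0.73 and -0.52 on the KO arrays, against -0.10 and -0.15 on the WT arrays. The difference was -0.50 ± 0.14 (SE) with an unadjusted limma p of 0.0221. The surface of KO replicate 1 was 0.510 at this probe, and with that surface divided out the difference was -0.025. With that array left out it was -0.39, at an unadjusted limma p of 0.0739.

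The other regulators gave no separation. Smad5, which relays bone morphogenetic protein signals, had 0.17 and -0.030 at its probes, and Tle4, a Groucho-type corepressor, had 0.053 and 0.16. Meis1, a homeobox gene of haematopoietic progenitors, was at -4.45 and -4.86 on the KO arrays, against -5.56 and -4.59 on the WT arrays, with the WT arrays far apart. Its difference of 0.42 ± 0.38 (SE) was 0.90 without WT replicate 2, at an unadjusted limma p of 0.0326, and -0.063 without WT replicate 1. The summed level of the 3 progenitor markers was 0.583 and 0.662 on the KO arrays, against 0.538 and 0.524 on the WT arrays, following mainly Kit, which differed by 0.082. Flt3 was higher in KO cells without overlap by 0.62 ± 0.17 (SE) at its leading probe, at an unadjusted limma p of 0.0183. Its other tested probes differed by 0.20 with overlapping groups and by 0.54 without overlap, at unadjusted limma p of 0.344 and 0.121. Cd34 differed by -0.00096 at its leading probe, with overlapping groups. The part of progenitor cells in the Meis1 signal was not tested. Sfpi1, the gene of the myeloid and B cell factor PU.1, was not well above background on 4 of 4 arrays and has no fold here.

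**Figure D2:**
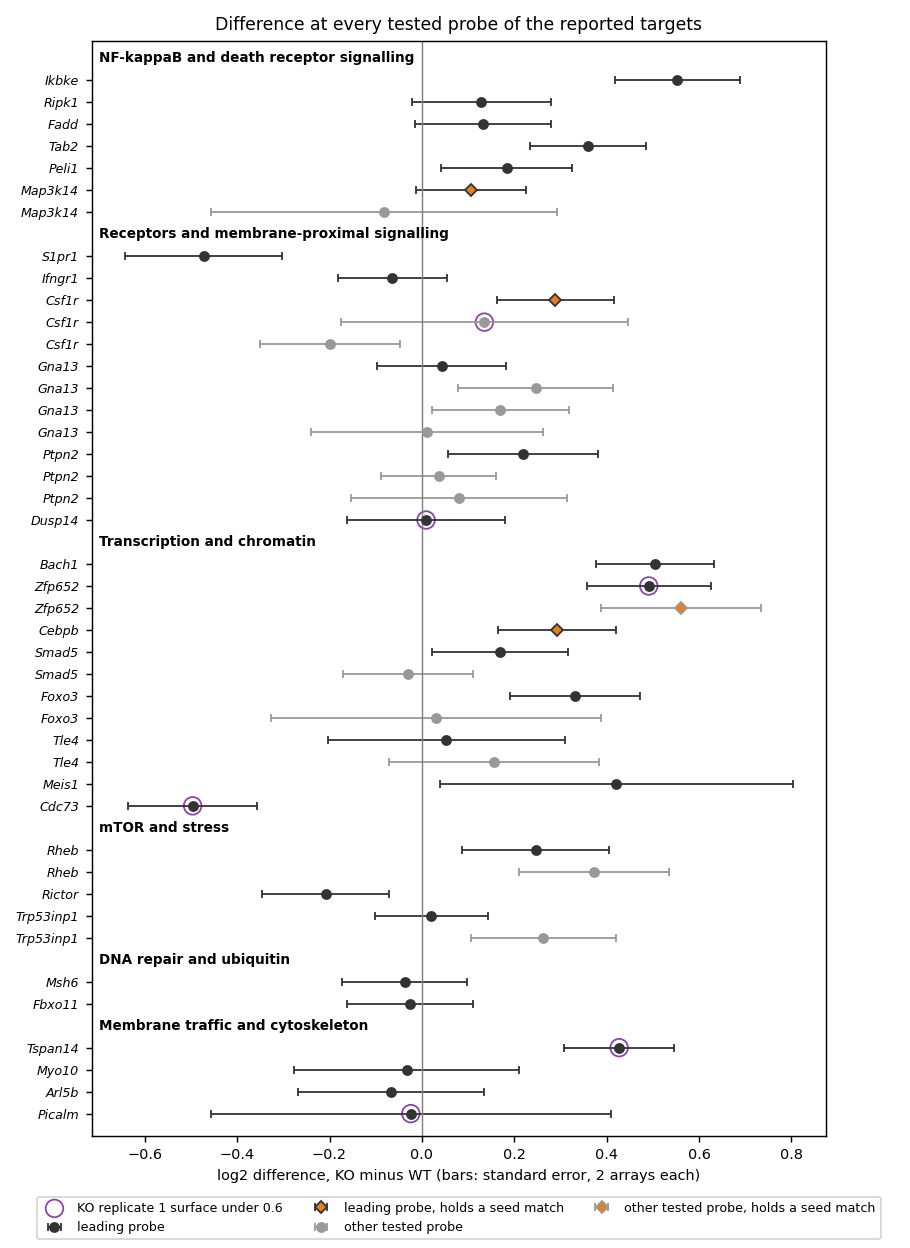
Log2 difference, KO minus WT, with its standard error (x axis) for each of the 43 tested probes of the reported targets, by role (rows). Black marks are leading probes, grey marks the gene's other probes and orange diamonds the 4 probes with a seed match, while purple rings mark the 6 probes where the surface of KO replicate 1 was below 0.6; the probes of Zfp652 lie together to the right of zero, and those of Csf1r, Map3k14 and Smad5 fall on both sides.

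The mTOR and stress genes included no member at an unadjusted p under 0.05. Rheb, the small GTPase that activates mTORC1, was at 1.42 and 1.37 on the KO arrays, against 0.99 and 1.30 on the WT arrays. Its second tested probe was at 0.36 and 0.36 on the KO arrays, against -0.18 and 0.15 on the WT arrays. Neither probe had overlapping groups, with differences of 0.25 ± 0.16 and 0.37 ± 0.16 (SE), but these probes cover nearly the same stretch of chromosome 5 and do not count as separate evidence. Rictor, the scaffold of mTORC2, was at 1.31 and 1.51 on the KO arrays, against 1.61 and 1.64 on the WT arrays. It was lower without overlap at -0.21 ± 0.14 (SE), opposite in sign to Rheb. Trp53inp1, a stress protein induced by p53, had 0.020 ± 0.12 (SE) at its leading probe and 0.26 ± 0.16 (SE) at its other.

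DNA repair and ubiquitin genes had overlapping groups. Msh6, part of the mismatch recognition complex, was at 4.69 and 4.70 on the KO arrays, against 4.63 and 4.83 on the WT arrays. Fbxo11, a substrate receptor of an SCF ubiquitin ligase, was at 0.43 and 0.23 on the KO arrays, against 0.36 and 0.36 on the WT arrays. The differences were -0.037 ± 0.14 and -0.026 ± 0.14 (SE). These genes are neighbours: their probes lie at chr17:88390143-88390202 and chr17:88390745-88390804 on mm9, on opposite strands.

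Among genes of membrane traffic and the cytoskeleton, Tspan14 was the one at an unadjusted p under 0.05. It encodes a tetraspanin that partners the protease ADAM10. Its signals were 4.09 and 4.13 on the KO arrays, against 3.70 and 3.67 on the WT arrays; replicates lay close together in both genotypes. The difference was 0.43 ± 0.12 (SE) with an unadjusted limma p of 0.0213 and an adjusted p of 0.389. The surface of KO replicate 1 was 0.585 at this probe. The difference was 0.80 with that surface divided out and 0.45 without that array.

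The other 3 genes of this role had overlapping groups. Arl5b, an ARF-like GTPase, was at -0.067 ± 0.20 (SE), and Myo10, an unconventional myosin of filopodia, at -0.033 ± 0.24 (SE). Picalm, a clathrin assembly protein, was at 5.04 and 6.24 on the KO arrays, against 5.65 and 5.68 on the WT arrays. The KO arrays lay on either side of the WT arrays, the dim one being KO replicate 1, so its difference of -0.024 ± 0.43 (SE) is an average of opposite values. It was 0.61 with that array's surface divided out, at an unadjusted limma p of 0.00571, and 0.58 without that array, at an unadjusted limma p of 0.0261. Without KO replicate 2 it was -0.63, at an unadjusted limma p of 0.0209.

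Of the 10 target genes with several tested probes, 7 kept 1 sign across their probes and 3 (Csf1r, Map3k14 and Smad5) did not. The median SD between replicates was 0.11 for the leading target probes and 0.16 for the leading probes of all genes. Differences over 0.5 in size were found in 2 of the 29 target genes, Ikbke and Bach1, and in 16.3% of all genes.

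A second list of 18 genes also reported as miR-155 targets in one cell type or another served as a comparison, with 17 of them tested. Their median difference was 0.026 over 10 positive and 7 negative leading probes. At an unadjusted limma p under 0.05, the leading probe of 1 gene (5.88%) was higher and 0 were lower, where all genes gave 7.8% and 3.46%. Over every tested probe of this list 3 of 22 (13.6%) were higher, against 6 of 43 (14.0%) of the reported targets. The gene with the leading probe was Inpp5d, which encodes the phosphatase SHIP1, at 4.10 and 3.94 on the KO arrays, against 3.51 and 3.51 on the WT arrays. Its difference of 0.51 ± 0.13 (SE) was close to those of Ikbke, Bach1 and Zfp652. Socs1, the inhibitor of cytokine receptor signalling, was at 5.14 and 4.76 on the KO arrays, against 5.07 and 5.21 on the WT arrays, with overlap. Jarid2, a Polycomb cofactor, differed by 0.12 ± 0.17 (SE) and Maf, a basic leucine zipper factor, by 0.15 ± 0.15 (SE) at its leading probe and -0.17 ± 0.13 (SE) at the other. Ets1 had 0.093 ± 0.12 and 0.66 ± 0.23 (SE) at its probes, both without overlap, and the second had an unadjusted limma p of 0.0431. Hif1a encodes the oxygen-regulated subunit of hypoxia-inducible factor, and its second probe differed by 0.37 ± 0.12 (SE) with an unadjusted limma p of 0.0371.

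**Figure D3:**
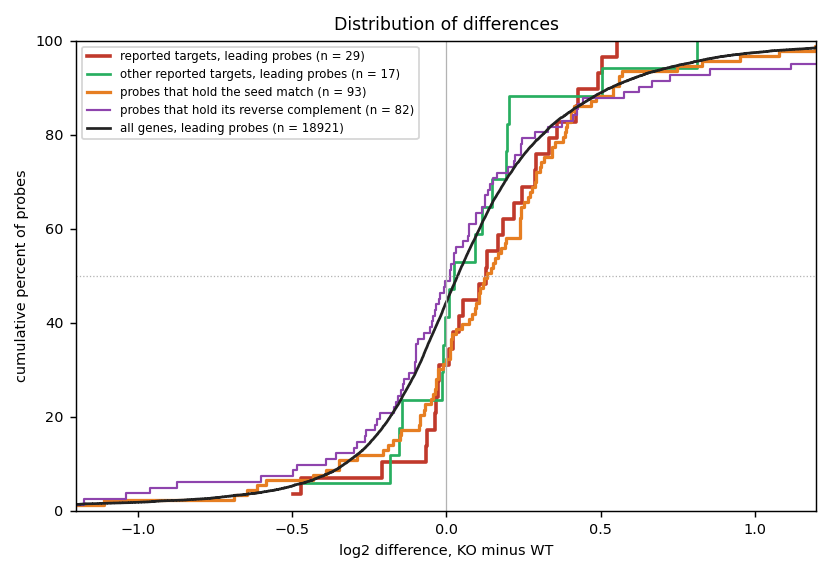
Cumulative percent of probes (y axis) against the log2 difference, KO minus WT (x axis), for the leading probes of 29 reported targets, of 17 other reported targets and of all 18921 tested genes, and for the 93 tested probes with a seed match and the 82 with its reverse complement. The targets and the seed match probes run to the right of all genes around zero, with medians of 0.13 and 0.13 against 0.037.

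The seed match itself was followed over the whole array, a description added after the values had been seen. AGCATTA was in 93 tested probes of 92 gene names, and 89 of these probes were not of the reported targets. Their median difference was 0.13, and 0.12 without the targets, against 0.035 over all tested probes. Both KO arrays lay above both WT arrays for 39 of the 93 probes (41.9%) and below them for 10 (10.8%), where all tested probes gave 27.3% and 19.6%. With median scaling and with the deposited matrix the direction turned, to 19 higher (20.4%) and 28 lower (30.1%), against 11.8% and 42.5% of all tested probes. Without the target probes the shares were 39.3% and 11.2%. For the longer match AGCATTAA, 21 of 41 probes (51.2%) were higher without overlap and 2 (4.88%) lower. Over the 38 of these that were not of the reported targets, 47.4% were higher and 5.26% lower.

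The reverse complement TAATGCT, which does not pair with the seed, gave 25.6% higher and 20.7% lower over 82 tested probes, with a median of 0.012. At an unadjusted limma p under 0.05, 10 seed match probes were higher and 2 lower, or 10.8% and 2.15%, against 7.63% and 3.48% of all tested probes. The reverse complement gave 8 higher and 2 lower, or 9.76% and 2.44%, close to the shares of the seed match. None passed the adjusted threshold. Zfp652 was the only reported target among those 10, and the 2 probes of the longer match with the smallest p, named after their values were seen, were those of Dennd3 at 0.83 ± 0.14 (SE) and Carhsp1 at 0.95 ± 0.17 (SE). With median scaling the median of the seed match probes was -0.050, against -0.15 for all tested probes.

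**Figure D4:**
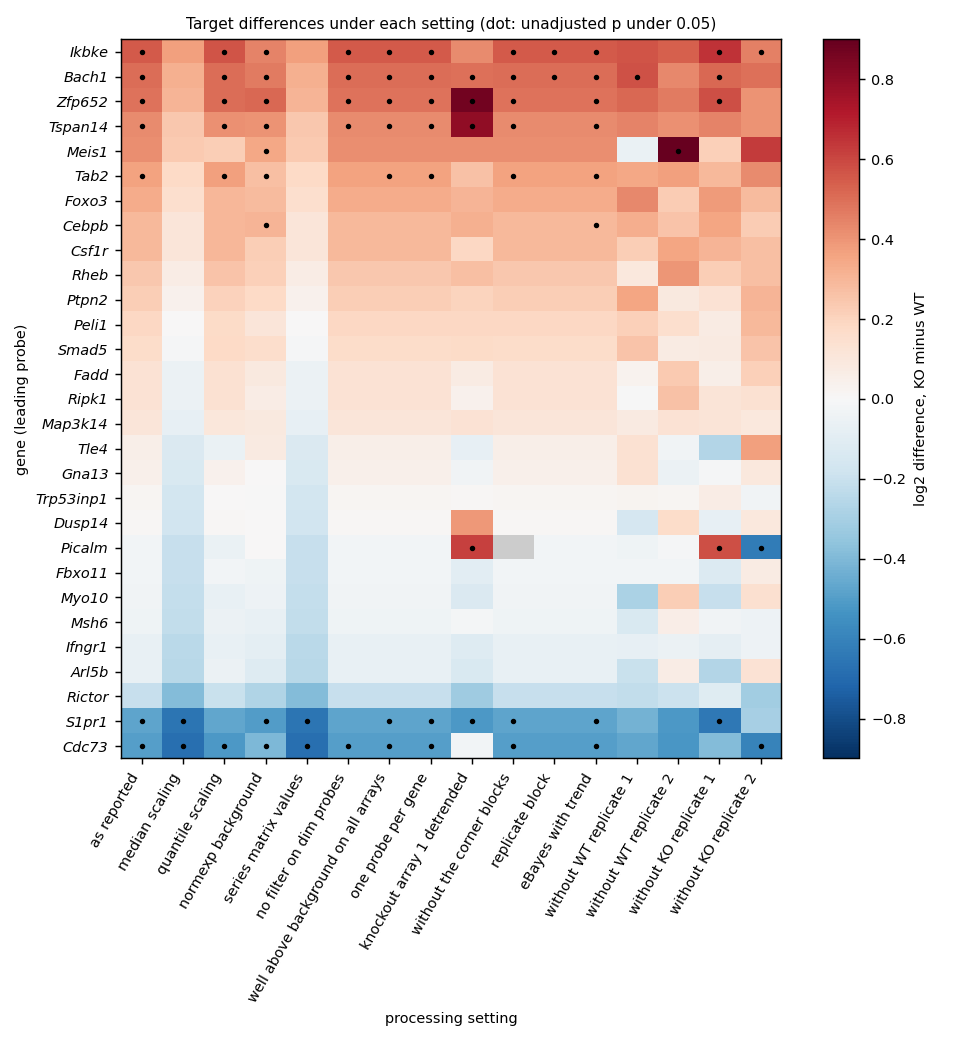
Log2 difference, KO minus WT (colour), of the leading probe of 29 reported targets (rows) under each processing setting (columns), with a dot where the unadjusted p was under 0.05 and grey where the probe was left out. Ikbke, Bach1, Zfp652, Tspan14 and Tab2 stay positive and S1pr1 and Cdc73 negative in every column shown, while the dots come and go. Columns that change only the probes included, the replicate block or the variance estimate repeat the reported differences.

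Of 15 alternative settings, those that change only the probes included, the replicate block or the variance estimate leave a gene's difference as reported. The deposited matrix gave the same differences as median scaling. Across all 15, which are thus not separate checks of sign, the 7 target genes that reached an unadjusted p under 0.05 kept their sign. Bach1 ranged from 0.32 to 0.58 and reached that threshold in 11 of the settings, Ikbke from 0.37 to 0.65 in 10 and Zfp652 from 0.31 to 0.87 in 9. S1pr1 ranged from -0.65 to -0.30 in 9, Tspan14 from 0.24 to 0.80 in 8 and Tab2 from 0.18 to 0.42 in 6. Cdc73 ranged from -0.68 to -0.025 and reached it in 10. Without WT replicate 2, 0 of these 7 genes reached the threshold.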

How the data were processed

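Cells, groups and arrays are described above. The authors deposited 1 Agilent Feature Extraction 10.5.1.1 file per array, per the submitters' processing notes. Per the file headers, the processed signal is an intensity on a linear scale, corrected for background and detrended, with probe positions on mm9. The fitted multiplicative surface, deposited in the same files, is a linear ratio. The authors' deposited matrix holds log2 values of unstated processing. Each column differed from the log2 processed signal by 1 constant, within 0.001 for 99.3% to 99.5% of probes, and it was used as an alternative.

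Control and outlier spots were left out, spots of a probe were averaged, and each array was shifted by its 75th percentile. Of 55681 probes, 16194 of lincRNA regions and 3959 without a name were kept apart. Tested probes were well above background in both replicates of at least 1 genotype. limma 3.58.1 in R 4.3.3 (lmFit, eBayes) was fitted on all tested probes. The p-values were adjusted by Benjamini-Hochberg, and 0.05 was the threshold. The fit was tested on simulated data. All reported targets are named, and values on each array are given for those at an unadjusted p under 0.05 and those that open a role. The members, lists and roles were chosen with earlier results of these data known. No set test was run. The Th17 marker list as a whole is not reported here. Figures were drawn with matplotlib 3.10.9.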

Additional observations from a re-analysis of the deposited data

How the results depend on the processing

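With median scaling and with the deposited matrix, which gave the same counts, the median over target probes was -0.053 and that of the other reported targets -0.16, with -0.15 for all tested probes. Target genes at an unadjusted p under 0.05 were then 0 higher, and genes without overlap 6 higher and 9 lower. Of all tested probes, 11.8% were then higher and 42.5% lower without overlap. All tested probes at that p were 896 higher and 2770 lower, so that 24.4% of them were higher instead of 68.7%. Quantile scaling gave -0.0021 for the other reported targets, 1 target gene lower, 1490 probes lower and 49.5% higher. normexp gave 4377 probes higher and 78.3% higher. Seed match probes had a median of -0.050 with median scaling and with the matrix.

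Without a filter on dim probes 1 target gene was lower, with 733 of 35527 probes lower over all. With KO replicate 1 detrended 1 target gene was lower, with 1096 of 25230 probes lower over all. Picalm was at 0.61 with that detrending, at 0.58 without KO replicate 1 and at -0.63 without KO replicate 2. With the replicate number as a block, 2 of 29 target genes were higher and 0 lower. Of all 25230 tested probes, 6.19% were then higher and 584 lower. Same-numbered arrays deviated together with a correlation of only 0.019 across probes, and no label says that a number marks a shared animal or day. Leaving out 1 array at a time gave medians from 0.074 to 0.22 for target probes and from -0.012 to 0.066 for the other reported targets. In the same refits, target genes ran from 1 to 4 higher and from 0 to 2 lower by p, and from 13 to 18 higher and from 5 to 8 lower without overlap. All tested probes ran from 1298 to 2081 higher, from 405 to 1241 lower and from 0 to 150 by adjusted p, with 150 without KO replicate 2 and 44 without WT replicate 1. A lone array was then assumed to vary like the other genotype, and the counts by p in these refits rest on that assumption. No conclusion on target genes against all tested probes is drawn from those counts. Lack of overlap is easier to reach with 2 arrays against 1, which raises the counts without overlap. Across these refits, from 35.2% to 49.9% of all tested probes were higher and from 26.9% to 39.8% lower without overlap. With all arrays those shares were 27.3% and 19.6%.

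The target probes lay above all tested probes by 0.011 (normexp) to 0.12 in 15 of 15 alternatives, and seed match probes by 0.026 to 0.16. These 15 are not separate checks of the target gap. A replicate block, eBayes with trend, median scaling and the deposited matrix each left it at 0.093, as reported. In those 15, seed match probes also had the larger share higher without overlap and the smaller share lower. Signs changed in at least 1 alternative for 14 target genes, 0 of them at an unadjusted p under 0.05 as reported.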
